A study of Mus musculus with 16 samples.

Results

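Ribosome biogenesis was followed through 39 genes whose products make, modify and assemble ribosomal RNA in the nucleolus. The genes were taken by symbol: each was represented by the probe set with the highest mean among those that reached a log2 intensity of 4 on at least 2 arrays, and all 39 passed. They stand among 10610 genes tested, and the series holds 45101 probe sets. By role they are the transcription factor gene Myc, 5 genes of RNA polymerase I and its factors, 4 of the box C/D and 5 of the box H/ACA small nucleolar ribonucleoproteins (snoRNPs), 11 for assembly of the small subunit, 9 for assembly of the large subunit, and 4 for abundant or multifunctional nucleolar proteins.

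The study measured gene expression on Affymetrix arrays in R7T1, a line of mouse beta cells, to look at agents that expand beta cells. The cells received DMSO (the vehicle), the compound labelled BayK8644(2a), exendin-4, or BayK8644(2a) with Exendin-4, for 0.5, 2, 6 or 24 h. BayK8644 is a dihydropyridine that favours the open state of L-type calcium channels, and exendin-4 is a peptide agonist of the receptor for GLP-1. What 2a stands for is not explained in the labels, and the compound is called BayK8644 here. The sources used here state no dose. Each treatment and time had 1 array, 16 in all, so there were no replicates: a treatment was judged over its 4 times and a time over its 4 treatments. Whether the arrays stem from independently grown cells is not stated in the labels. Every p-value below rests on the spread among these arrays alone, which is what the terms of the model leave over. That spread could be technical. Depending on the model, it can also hold treatment effects that change with time or do not add. It does not measure the spread of replicates.

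Ribosome production starts with transcription of the ribosomal DNA by RNA polymerase I, which needs the factors UBTF and RRN3. The long precursor RNA is then modified by snoRNPs, folded and cut, while assembly factors build the small and the large subunit around it. MYC, a transcription factor that binds the E-box sequence CACGTG, drives many of these genes, and their activity follows cell growth. A beta cell that grows or divides has to make more ribosomes, and the same machinery serves the synthesis of insulin.

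The E-boxes near the members' start sites are shown because MYC can bind that sequence. Binding was not measured here. Of the 39 members, 33 had a promoter window of 300 bases in the RefSeq table of the mouse build GRCm38.p6, from 250 bases before to 50 bases after the start of the gene. The letters CACGTG, a palindrome that reads the same on both strands, were found in 8 of the 33 windows (24.2%) and in 7.24% of all 27025 windows of the table. The cAMP response element TGACGTCA, also a palindrome and with no overlap with the E-box, was in 1 member window, that of Noc4l (3.03%), and in 1.88% of all windows. A match describes the letters only. The stretches below run 5′ to 3′ on the gene's own strand with the E-box in capitals, and its position is counted with +1 at the start of the gene and no 0.
Nop2, chr6:125131813-125131838, plus strand, -60 to -55: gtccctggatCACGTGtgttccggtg
Rrn3, chr16:13780474-13780499, plus strand, -215 to -210: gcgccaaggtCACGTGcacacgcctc
Rrn3, chr16:13780641-13780666, plus strand, -48 to -43: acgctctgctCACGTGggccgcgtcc
Pes1, chr11:3963967-3963992, plus strand, 3 to 8: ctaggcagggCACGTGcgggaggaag
Wdr43, chr17:71616222-71616247, plus strand, 18 to 23: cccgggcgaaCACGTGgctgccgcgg
Tsr1, chr11:74898094-74898119, plus strand, 25 to 30: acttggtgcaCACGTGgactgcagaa
Ltv1, chr10:13193094-13193119, minus strand, 29 to 34: cctgtggaccCACGTGtggagctgcc
Utp20, chr10:88826765-88826787, minus strand, 38 to 43: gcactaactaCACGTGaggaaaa
Mybbp1a, chr11:72441357-72441376, plus strand, 41 to 46: cttctgagccCACGTGtttg

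Gnl3 and Utp20, the members with the smallest adjusted p-values over all comparisons below, differ in their promoters. The window of Gnl3 held neither motif. The 100 bases just upstream of the start, on the minus strand in both genes, had a GC content of 73.0% in Gnl3 and 55.0% in Utp20. Both stretches are written in lower case because neither motif lies in them.
Gnl3, chr14:31019132-31019231, minus strand: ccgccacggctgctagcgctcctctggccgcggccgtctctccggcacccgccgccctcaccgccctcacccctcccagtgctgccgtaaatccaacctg
Utp20, chr10:88826815-88826914, minus strand: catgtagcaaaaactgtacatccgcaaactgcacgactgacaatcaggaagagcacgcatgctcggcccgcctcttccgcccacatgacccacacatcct

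The median intensity of an array ran from 10.5 to 11.6 on the linear scale, under the filter level of 16. The deposited values were already normalized between arrays, so alike medians say nothing of array quality. The label was checked against cell type markers: all 10 beta cell markers measured passed the filter, with Ins2 between 15.60 and 15.79, Pdx1 between 13.22 and 13.43, Neurod1 between 12.37 and 12.83, Nkx6-1 between 11.99 and 12.61 and Chga between 14.17 and 14.58 (log2). Of the markers of other cells, 3 of 5 for alpha, delta and PP cells, 2 of 5 for acinar and duct cells and 1 of 7 for mesenchymal, endothelial and leukocyte cells passed. Cpa1, Krt19, Col1a1, Col3a1, Pecam1, Kdr, Ptprc, Cd68, Ppy and Hhex stayed under the filter level on every array.

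With both agents together, most of the 39 genes lay above DMSO, and 5 of them rose. These were Gnl3, which encodes a nucleolar GTP-binding protein, Bop1 and Wdr12, 2 members of the complex that processes the large subunit rRNA, Utp20, a scaffold of the small subunit processome, and Mybbp1a, a nucleolar protein that binds MYB. None fell. The rises were small, between 0.18 and 0.27 on the log2 scale as averages over the 4 times. Of all genes tested, 4.38% rose and 2.59% fell in this comparison at an adjusted p under 0.05 (limma, 10610 genes). The median difference of the 39 was 0.12, against 0.02 for all genes tested, and 31 of 39 were above 0 (56.0% of all genes). At an unadjusted p under 0.05 there were 21 of 39 (27.9% of all genes).

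**Figure D1:**
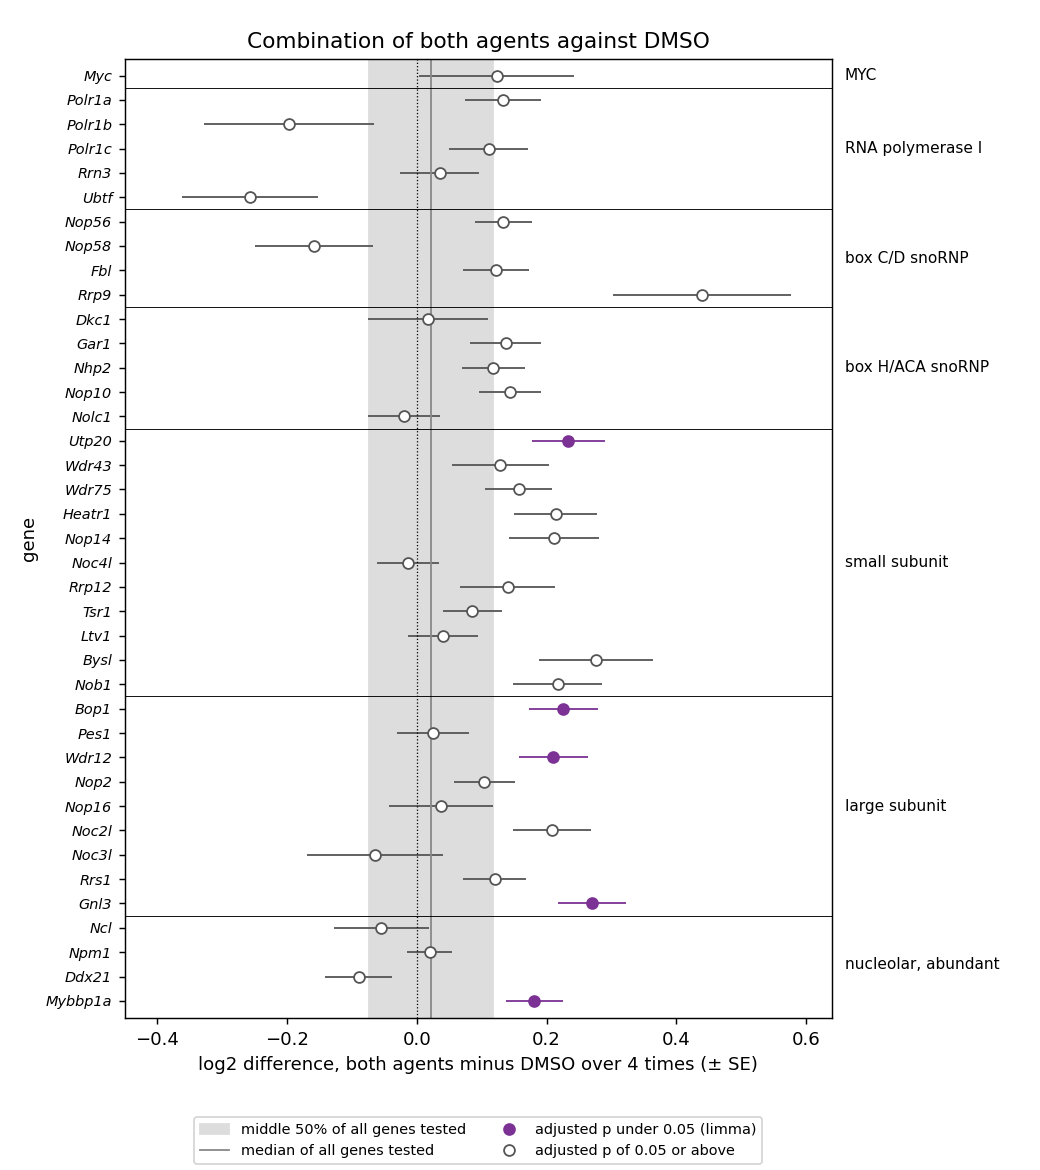
Each point is the log2 difference of both agents minus DMSO averaged over the 4 times, with limma's SE as the bar, for the 39 members in blocks by role. Filled points mark Utp20, Bop1, Wdr12, Gnl3 and Mybbp1a, whose adjusted p was under 0.05, and the grey band holds the middle 50% of all genes tested.

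The levels behind these rises were as follows, with 4 values given in the order 0.5, 2, 6 and 24 h, all log2 intensities. Gnl3 had 10.83, 11.01, 11.05 and 10.99 with DMSO, 10.96, 11.37, 11.25 and 11.16 with BayK8644, 10.96, 11.23, 11.19 and 11.12 with exendin-4, and 10.98, 11.43, 11.20 and 11.35 with both agents. DMSO was the lowest of the 4 treatments at every time, and the highest value of all was the combination at 2 h. The difference of both agents from DMSO was 0.27 with an SE of 0.053 (adjusted p = 0.0157).

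Bop1 was at 11.51, 11.63, 11.70 and 11.67 with DMSO, 11.58, 11.64, 12.02 and 11.63 with BayK8644, 11.62, 11.70, 11.90 and 11.64 with exendin-4, and 11.65, 11.85, 12.03 and 11.88 with both agents. The 6 h arrays of the agents stood highest. The combination exceeded DMSO by 0.23 (SE 0.054, adjusted p = 0.0285). Wdr12 was at 9.66, 9.71, 9.79 and 9.79 with DMSO, 9.77, 9.91, 10.05 and 9.90 with BayK8644, 9.86, 9.87, 9.98 and 9.77 with exendin-4, and 9.80, 9.95, 10.09 and 9.95 with both agents. All 4 combination arrays of Wdr12 lay above all 4 DMSO arrays, with a difference of 0.21 (SE 0.053, adjusted p = 0.0346).

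Utp20 had 9.97, 10.23, 10.30 and 10.27 with DMSO, 9.99, 10.30, 10.52 and 10.53 with BayK8644, 9.91, 10.26, 10.32 and 10.56 with exendin-4, and 10.11, 10.43, 10.56 and 10.61 with both agents. The combination was highest at each time, by 0.23 over DMSO on average (SE 0.056, adjusted p = 0.0301), although the spread over times was wider than that. Mybbp1a was at 11.85, 11.92, 11.99 and 11.89 with DMSO, 11.84, 11.87, 12.13 and 11.91 with BayK8644, 11.84, 11.95, 12.01 and 11.95 with exendin-4, and 11.95, 12.16, 12.15 and 12.12 with both agents. Its single-agent arrays mixed with DMSO and the combination stood apart at 2 and 24 h, for a difference of 0.18 (SE 0.044, adjusted p = 0.0309).

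These 5 calls depended on single arrays. All 5 were lost when the DMSO array of 2 h, or the combination array of 2 h or of 24 h, was left out. Only 1 call was left without the DMSO or the combination array of 6 h, and 3 without the DMSO array of 24 h, while 14 members passed without the combination array of 0.5 h and 10 when the 24 h array of exendin-4 was dropped. A second probe set pointed the other way, without passing, for Bop1 (-0.04, SE 0.158) and Wdr12 (-0.02, SE 0.169), both at lower intensity. With the mean over the probe sets of each gene, Bop1, Wdr12 and Mybbp1a no longer passed, and Gnl3, Utp20, Bysl and Nop56 did.

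Taken time by time, 20 of the 39 members were higher with both agents than with DMSO at all 4 times, against 17.2% of all genes, and Ubtf was lower at all 4 (11.3% of all genes). Wdr12, Nop10 and Nob1 had all 4 combination arrays above all 4 DMSO arrays, as had 3.79% of all genes. The median member difference between the single arrays was 0.07 at 0.5 h, 0.14 at 2 h, 0.16 at 6 h and 0.09 at 24 h, against 0.02, 0.01, 0.02 and 0.02 for all genes.

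The small subunit factors had the largest median difference between both agents and DMSO of the role groups with more than 1 gene, 0.16, and 10 of 11 were above 0. Utp20 passed the test, and Heatr1, a further processome protein (0.21, adjusted p = 0.057), Nob1, the endonuclease of the small subunit rRNA (0.22, adjusted p = 0.0668), Bysl, a small subunit assembly factor (0.28, adjusted p = 0.0682), and Nop14, a processome component (0.21, adjusted p = 0.0725), did not. Bysl was at 9.95, 10.04, 9.97 and 9.87 with DMSO, 9.81, 10.03, 10.33 and 9.98 with BayK8644, 10.10, 10.04, 10.12 and 9.76 with exendin-4, and 9.97, 10.27, 10.44 and 10.25 with both agents. Its combination arrays exceeded the other treatments at 2, 6 and 24 h, but not at 0.5 h. Wdr75, a processome protein, had 10.85, 10.88, 10.91 and 10.99 with DMSO, 10.83, 11.14, 11.01 and 10.99 with BayK8644, 10.93, 10.99, 11.08 and 11.02 with exendin-4, and 10.93, 11.16, 11.14 and 11.04 with both agents, with a difference of 0.16 (adjusted p = 0.0729). Noc4l, a partner of NOP14, stood at -0.01.

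Large subunit factors had a median of 0.12, with 8 of 9 above 0 and 3 called. Noc2l, a pre-ribosome factor, was at 9.83, 9.88, 9.98 and 9.84 with DMSO, 9.81, 10.08, 10.28 and 9.89 with BayK8644, 9.84, 9.95, 10.07 and 9.91 with exendin-4, and 9.91, 10.08, 10.22 and 10.16 with both agents. It missed the threshold narrowly (0.21, adjusted p = 0.0521). Noc3l, which partners NOC2L, had a difference of -0.06, and Pes1, the third protein of the complex with BOP1 and WDR12, of 0.02.

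Among the box C/D proteins, Nop56 had 12.29, 12.41, 12.38 and 12.41 with DMSO, 12.36, 12.47, 12.58 and 12.37 with BayK8644, 12.43, 12.49, 12.54 and 12.39 with exendin-4, and 12.37, 12.64, 12.54 and 12.46 with both agents (0.13 over DMSO, adjusted p = 0.0729). A second probe set of Nop56, tested among all probe sets, rose by 0.20 (adjusted p = 0.0451). Rrp9, a protein of the snoRNP that guides early cuts of the precursor, had the widest range of all 39 genes, 1.12 on the log2 scale. Its levels were 7.14, 7.31, 7.41 and 7.20 with DMSO, 7.24, 7.18, 7.72 and 7.14 with BayK8644, 7.35, 7.04, 7.57 and 6.85 with exendin-4, and 7.20, 7.86, 7.97 and 7.79 with both agents. The combination arrays of 2, 6 and 24 h were the 3 highest of the 16, and that of 0.5 h was not raised, so the average difference of 0.44 had an SE of 0.138 (adjusted p = 0.0645). Nop58, the partner of NOP56, had a difference of -0.16 and Fbl, the methyltransferase of the particle, one of 0.12.

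In the box H/ACA particle, 4 of 5 members were above 0, with a median of 0.12. Nhp2 was at 13.46, 13.48, 13.51 and 13.40 with DMSO, 13.45, 13.46, 13.56 and 13.40 with BayK8644, 13.54, 13.54, 13.63 and 13.36 with exendin-4, and 13.40, 13.65, 13.68 and 13.60 with both agents. Its range over the arrays was small, and the combination differed from DMSO by 0.12 (adjusted p = 0.138). Gar1 (0.14) and Nop10 (0.14) were placed alike, while Dkc1, the pseudouridine synthase, stood at 0.02 and Nolc1, a chaperone of snoRNPs, at -0.02.

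RNA polymerase I genes did not share a direction. Polr1a, the largest subunit, was at 9.50, 9.65, 9.82 and 9.55 with DMSO, 9.49, 9.43, 9.67 and 9.44 with BayK8644, 9.57, 9.75, 9.94 and 9.83 with exendin-4, and 9.65, 9.65, 9.95 and 9.80 with both agents. It was lower with BayK8644 alone than with DMSO at all 4 times and higher with exendin-4 at all 4, and neither difference passed (-0.12, adjusted p = 0.353, and 0.14, adjusted p = 0.751). With both agents its difference was 0.13 (adjusted p = 0.158), while 2 other probe sets of the gene gave -0.42 (SE 0.200) and -0.40 (SE 0.230).

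Polr1b, the second largest subunit, had 8.63, 8.24, 8.41 and 8.68 with DMSO, 8.62, 8.67, 8.71 and 8.71 with BayK8644, 8.44, 8.78, 8.42 and 8.20 with exendin-4, and 8.42, 8.44, 8.35 and 7.96 with both agents. The 4 combination arrays all lay below the 4 BayK8644 arrays, which was also so for Noc3l and for 0.858% of all genes. Both were picked out here after their values were seen. Neither gene departed from additivity after adjustment (Polr1b -0.35, SE 0.185, adjusted p = 0.747, and Noc3l -0.32, SE 0.148, adjusted p = 0.739). Ubtf, which binds the ribosomal DNA, had 9.68, 9.37, 9.66 and 9.53 with DMSO, 9.61, 9.74, 9.46 and 9.02 with BayK8644, 9.51, 9.31, 9.34 and 9.32 with exendin-4, and 9.53, 9.23, 9.31 and 9.14 with both agents. It differed by -0.26 (adjusted p = 0.13), and its second probe set by 0.05. Polr1c (0.11) and Rrn3 (0.04) completed the group.

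The abundant nucleolar proteins other than Mybbp1a did not follow the assembly factors: Ncl stood at -0.05, Npm1 at 0.02 and Ddx21, an RNA helicase, at -0.09. A second bright probe set of Ncl gave -0.38 (SE 0.160). Across the 24 members with further probe sets above the filter, 16 of 33 further probe sets had the sign of the main one with both agents and 17 the opposite sign.

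Myc itself was not called in any comparison. Its levels were 7.70, 7.67, 7.68 and 7.75 with DMSO, 8.06, 7.55, 7.35 and 7.59 with BayK8644, 7.85, 7.50, 7.39 and 7.97 with exendin-4, and 8.09, 7.65, 7.88 and 7.67 with both agents. The 2 arrays with BayK8644 at 0.5 h were the highest of the 16, and the DMSO arrays kept between 7.67 and 7.75. At 0.5 h the difference between arrays with and without BayK8644 was 0.30 (SE 0.180, unadjusted p = 0.131), and from 0.5 to 2 h, over the treatments, the difference was -0.33 (SE 0.12, adjusted p = 0.125).

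**Figure D2:**
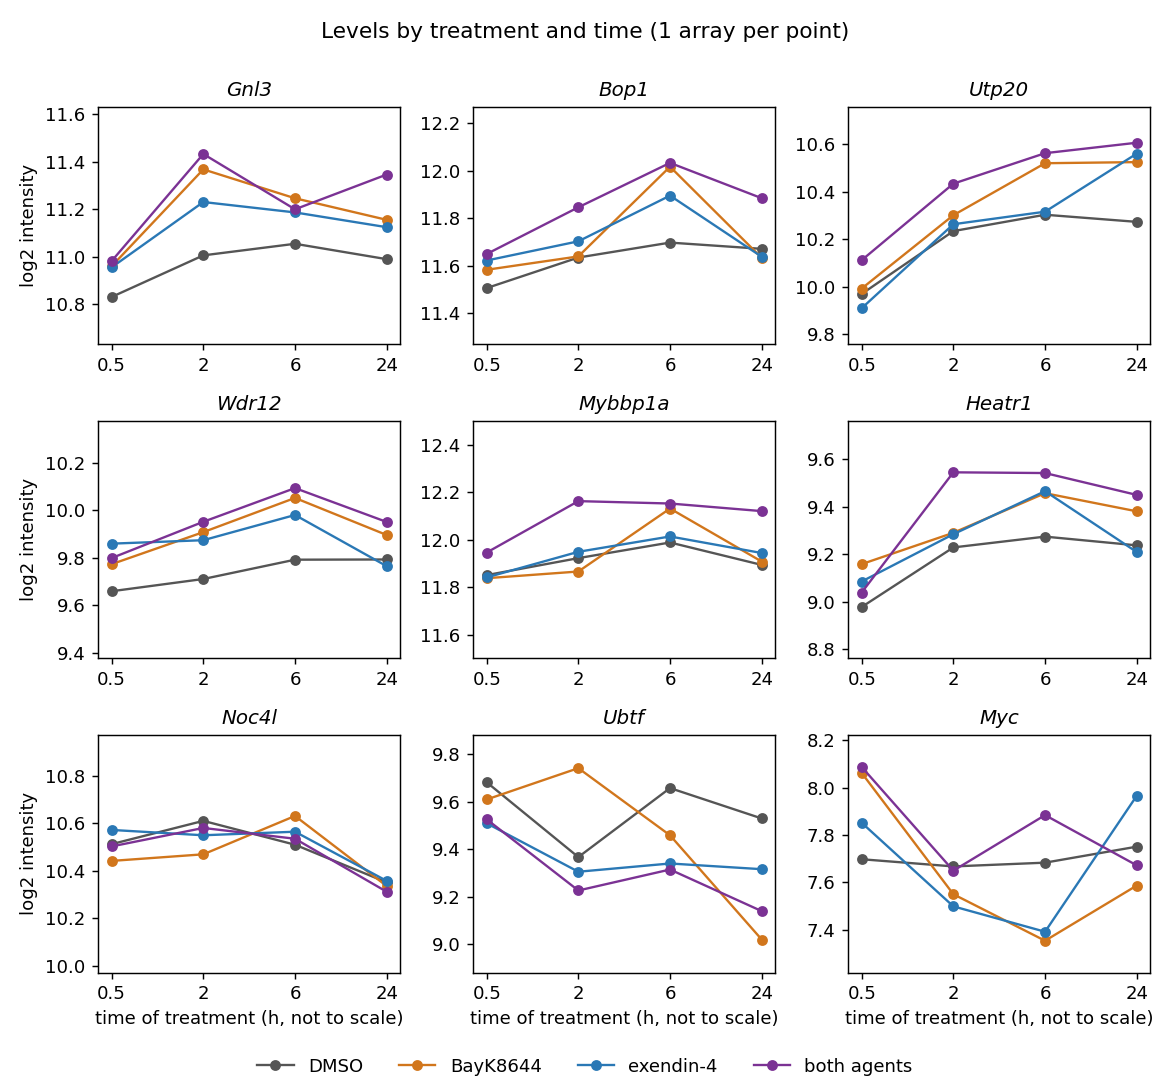
Log2 intensity of 9 members against time of treatment, with 1 array per point, a colour for each treatment and panels that all span 1 log2 unit. Gnl3, Bop1, Wdr12 and Mybbp1a lie highest with both agents at most times, Noc4l falls at 24 h with every treatment, and Myc is highest at 0.5 h on the arrays with BayK8644.

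With single agents none of the members passed. All treatment comparisons share the 4 DMSO arrays, so their values are given side by side. BayK8644 alone gave a median of 0.05 over the 39, with 30 above 0, against -0.01 and 45.3% for all genes. None was called, at a background of 0.839% called in either direction, and 6 had an unadjusted p under 0.05, a share of 15.4% that lies near the 14.9% of all genes. The member with the smallest p was Gnl3 (0.21, adjusted p = 0.0885), followed by Wdr12 (0.17, adjusted p = 0.154). Without the DMSO array of 0.5 h, 1 member passed. When the 8 arrays with BayK8644 were set against the 8 without it, Gnl3 (0.16, adjusted p = 0.0177), Utp20 (0.15, adjusted p = 0.0247) and Noc2l (0.14, adjusted p = 0.0493) passed, at a background of 8.86%.

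Exendin-4 alone gave a median of 0.06, with 31 of 39 members above 0, against 0.00 and 47.9% for all genes. No gene of the array was called (0%), and 4 members (10.3%) and 698 of all genes (6.58%) had an unadjusted p under 0.05 in limma. Gnl3 again had the smallest p (0.15, adjusted p = 0.725). The departure of the combination from the sum of both agents had a median of 0.00 over the members, against 0.05 for all genes. No gene was called for it either (0%), and 3 members (7.69%) and 710 of all genes (6.69%) had an unadjusted p under 0.05. Rrp9 had the largest departure among the members (0.44, SE 0.194, adjusted p = 0.736).

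At single times, the 2 arrays with an agent were set against the 2 without it, and no member passed for either agent. For BayK8644 the background was 0.217% at 0.5 h, 1.63% at 2 h, 2.48% at 6 h and 5.11% at 24 h. The member medians were 0.01, 0.07, 0.10 and 0.03 in that order, against 0.01, -0.01, 0.01 and 0.01 for all genes. At an unadjusted p under 0.05 there were 0, 4, 9 and 9 members, which is 0%, 10.3%, 23.1% and 23.1%, against 2.05%, 12.0%, 14.9% and 22.5% of all genes. The members with the smallest p were Gnl3 at 2 h (0.28, adjusted p = 0.128), Bysl at 6 h (0.34, adjusted p = 0.157), and at 24 h Dkc1 (-0.30, adjusted p = 0.0782) and Nolc1 (-0.21, adjusted p = 0.0928). At 24 h, 3 members passed when the DMSO or the BayK8644 array of that time was left out. For exendin-4 the background was 0.00943% at 0.5 h, 0.0189% at 2 h, and 0% at 6 and 24 h, and the member medians were 0.06, 0.08, 0.04 and 0.04, against 0.01, 0.02, 0.01 and 0.01 for all genes. At an unadjusted p under 0.05 in limma there were 1, 0, 3 and 3 members, which is 2.56%, 0%, 7.69% and 7.69%, against 1.89%, 5.55%, 6.97% and 5.91% of all genes. Whether the effect of BayK8644 changed with time was tested in the same model: 0 members passed (4 at an unadjusted p under 0.05, smallest adjusted p = 0.35 for Dkc1), and 66 of all genes did. For exendin-4, 0 members passed, 1 had an unadjusted p under 0.05, and 1 of all genes passed.

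The times were compared over the 4 treatments. From 0.5 to 2 h, 4 members rose and none fell, against 2.05% and 2.64% of all genes. Gnl3 rose by 0.33 (SE 0.053, adjusted p = 0.00702), Utp20 by 0.31 (SE 0.056, adjusted p = 0.0104), Tsr1, a small subunit factor, by 0.25 (SE 0.046, adjusted p = 0.0112) and Heatr1 by 0.27 (SE 0.064, adjusted p = 0.0292). Tsr1 had 11.53, 11.62, 11.59 and 11.62 with DMSO, 11.44, 11.76, 11.76 and 11.65 with BayK8644, 11.47, 11.75, 11.77 and 11.66 with exendin-4, and 11.46, 11.78, 11.79 and 11.68 with both agents. The 4 arrays of 0.5 h were its lowest, and the step was smallest with DMSO. A second probe set of Tsr1 also rose (0.23, adjusted p = 0.0202). Heatr1 was at 8.98, 9.23, 9.27 and 9.24 with DMSO, 9.16, 9.29, 9.46 and 9.38 with BayK8644, 9.09, 9.29, 9.47 and 9.21 with exendin-4, and 9.04, 9.55, 9.54 and 9.45 with both agents. A dimmer probe set of Heatr1 pointed the other way (-0.16, SE 0.121), and 2 of the 4 calls were lost without the combination array of 2 h.

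The median of the members from 0.5 to 2 h was 0.11, against -0.01 for all genes, and 31 of 39 were above 0. From 2 to 6 h none was called, at a background of 0.405%. The median was 0.06 with 29 above 0, and 7 members had an unadjusted p under 0.05, a share of 17.9% near the 14.4% of all genes. The 6 h arrays take part in this step and in the next.

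From 6 to 24 h the direction turned: 5 members fell and none rose, against 6.42% of all genes that fell and 6.76% that rose. The median of the members was -0.11, against 0.00 for all genes, and 5 of 39 were above 0. Noc4l fell by 0.22 (SE 0.048, adjusted p = 0.00824). It had 10.51, 10.61, 10.51 and 10.35 with DMSO, 10.44, 10.47, 10.63 and 10.34 with BayK8644, 10.57, 10.55, 10.56 and 10.36 with exendin-4, and 10.50, 10.58, 10.54 and 10.31 with both agents. The 4 arrays of 24 h were the lowest of the 16, and 2 further probe sets of Noc4l also fell (-0.23, adjusted p = 0.0365, and -0.24, adjusted p = 0.0415).

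Bop1 fell by 0.20 (adjusted p = 0.0226), Nolc1 by 0.20 (adjusted p = 0.0341), Rrp12, a small subunit assembly and export factor, by 0.24 (adjusted p = 0.0466), and Polr1a by 0.19 (adjusted p = 0.0486). Nolc1 had 11.80, 12.02, 12.05 and 11.91 with DMSO, 11.89, 12.00, 12.12 and 11.78 with BayK8644, 11.87, 12.11, 12.03 and 12.02 with exendin-4, and 11.94, 12.04, 12.00 and 11.73 with both agents. The lowest of its 24 h values were those with BayK8644 and with both agents. Rrp12 was at 9.84, 10.08, 10.07 and 9.97 with DMSO, 9.93, 10.29, 10.28 and 9.92 with BayK8644, 10.02, 10.07, 10.11 and 9.94 with exendin-4, and 9.92, 10.08, 10.42 and 10.10 with both agents. In each treatment it was lower at 24 h than at 6 h. Without the BayK8644 array of 6 h or of 24 h, or the combination array of 6 h, 1 of the 5 calls was left. The count was 2 when the 6 h array of exendin-4 was dropped, and 3 without the DMSO array of 0.5 h or of 2 h or the 2 h array of exendin-4. Without the DMSO array of 6 h or the combination array of 24 h, Nolc1, Rrp12 and Polr1a lost their calls. Bop1 and Rrp12 lost theirs without the exendin-4 array of 24 h. Of 2 further probe sets of Polr1a, 1 gave 0.02.

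From 0.5 to 24 h, 5 members rose and 2 fell, against a high background: 10.6% of all genes rose and 13% fell. Utp20 rose by 0.50 (SE 0.056, adjusted p = 2.70e-05), followed by Heatr1 (0.25, adjusted p = 0.0111), Gnl3 (0.22, adjusted p = 0.00802), Tsr1 (0.18, adjusted p = 0.0131) and Nop10 (0.14, adjusted p = 0.0436). Noc4l fell by 0.17 (adjusted p = 0.0217) and Ubtf by 0.33 (adjusted p = 0.0349). The count was 4 without the BayK8644 or the exendin-4 array of 0.5 h, or the combination array of 24 h. Of the 21 calls in all these comparisons, 6 held whichever array was left out: Gnl3 and Utp20 from 0.5 to 2 h, Noc4l from 6 to 24 h, and Utp20, Gnl3 and Heatr1 from 0.5 to 24 h. With the mean over probe sets, however, both calls of Heatr1 were lost, with differences of 0.07 from 0.5 to 2 h (adjusted p = 0.588) and 0.05 from 0.5 to 24 h (adjusted p = 0.657).

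**Figure D3:**
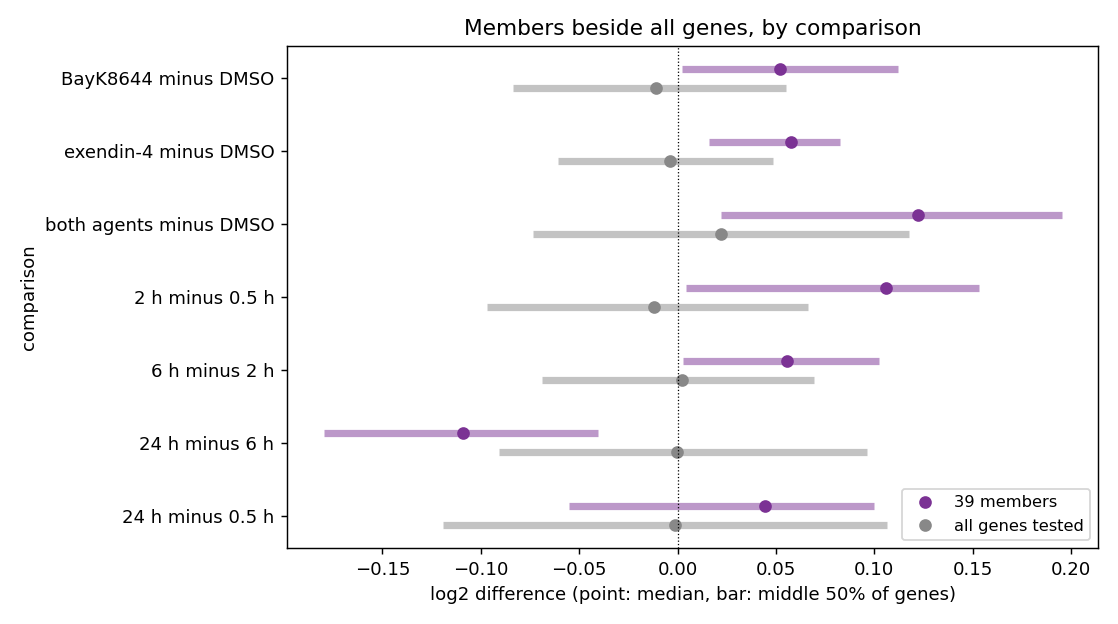
Median (point) and middle 50% (bar) of the log2 differences of the 39 members and of all 10610 genes tested, for the 3 treatment and the 4 time comparisons. The members' medians lie above those of all genes in each comparison except 24 h minus 6 h, where it is -0.11 against 0.00.

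The median of the members, each taken from its own mean, rose from 0.5 to 6 h with every treatment. It went from -0.11 to -0.03 with DMSO and from -0.01 to 0.07 with exendin-4. The steps were wider with BayK8644, from -0.09 to 0.14, and with both agents, from -0.06 to 0.13. Averaged over the treatments, 23 of the 39 members had their highest level at 6 h (18.6% of all genes), 8 at 2 h, 5 at 0.5 h and 3 at 24 h, and 22 had their lowest at 0.5 h (24.8% of all genes). The single highest array was the combination at 6 h for 11 members (10.7% of all genes), the combination at 2 h for 7 and BayK8644 at 6 h for 6. The lowest was DMSO at 0.5 h for 11 members (6.41% of all genes). On the BayK8644 array of 6 h, 35 of 39 members lay above their own mean (46.4% of all genes), with a median of 0.14. On the combination array of 6 h 33 did (55.8% of all genes), with a median of 0.13. On the exendin-4 array of 6 h 29 did (44.7% of all genes). The DMSO array of 6 h had 15 members above their mean (46.6% of all genes), with a median of -0.03. The range of a member over the 16 arrays had a median of 0.43, against 0.50 for all genes.

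**Figure D4:**
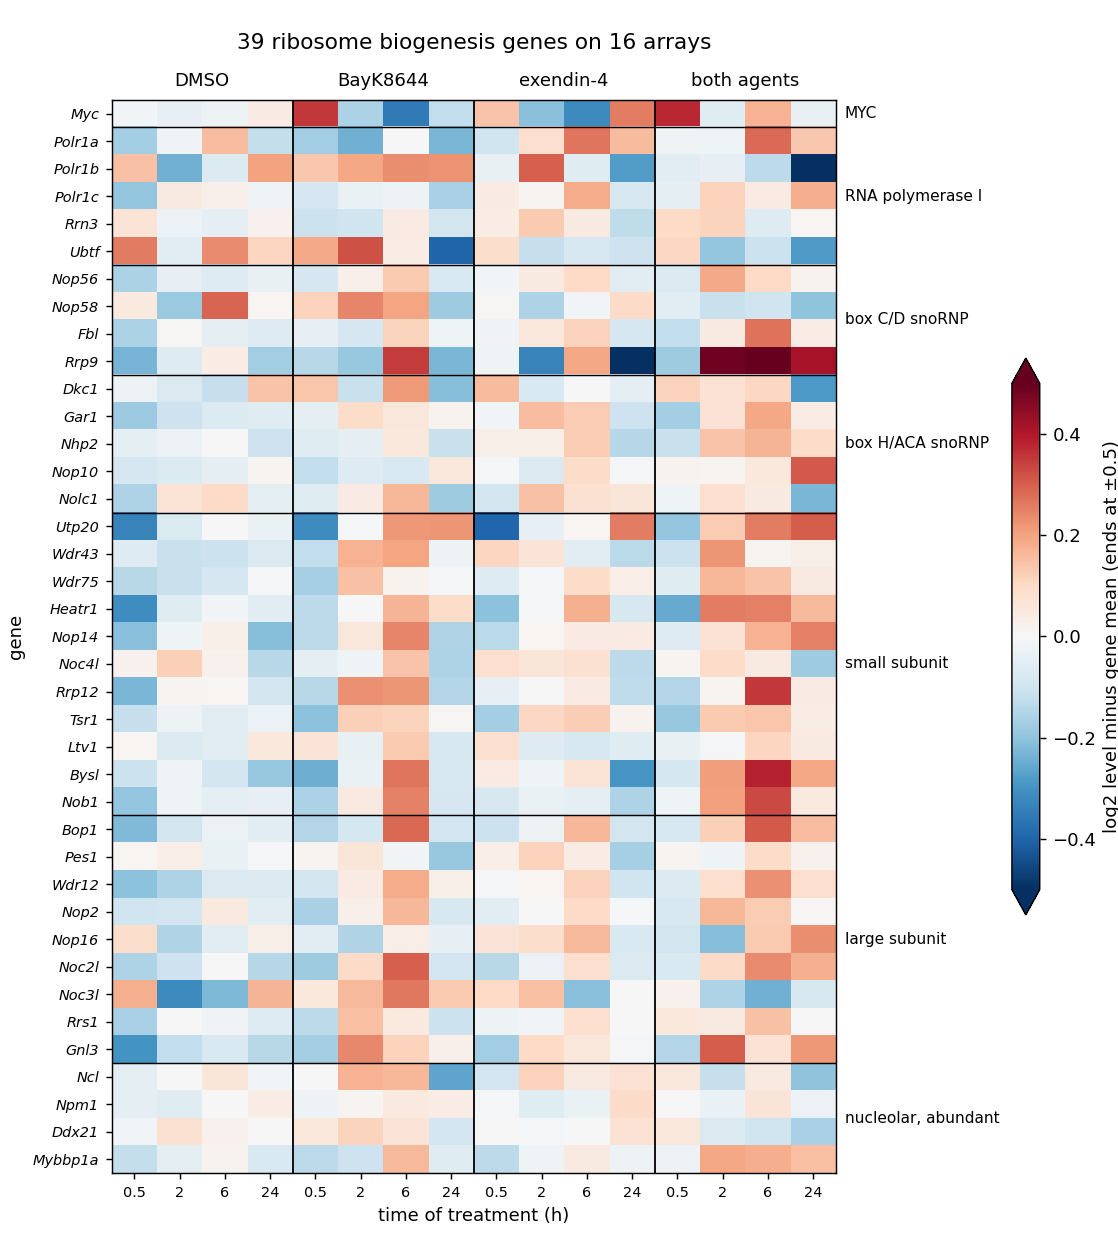
Log2 level of each of the 39 members (rows, in blocks by role) on each of the 16 arrays (columns, by treatment and time), as the difference from the gene's own mean, with colours that end at 0.5 on either side. The columns of 6 h with BayK8644 and with both agents are mostly red, with 35 and 33 of 39 members above their mean, and the column of DMSO at 0.5 h is mostly blue.

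Other genes of the pathway, were followed in lists that leave out the 39, and the counts with both agents are to be read against 4.38% of all genes that rose and 2.59% that fell. Of 92 other assembly factors tested, 10 rose and none fell with both agents against DMSO, with a median of 0.10 and 71 above 0. The 3 with the smallest adjusted p were Zfp622, a late maturation factor of the large subunit (0.24, adjusted p = 0.00907), Dis3, a nuclease of the RNA exosome (0.37, adjusted p = 0.00921), and Nsun5, an rRNA methyltransferase (0.28, adjusted p = 0.017). From 6 to 24 h, 9 of the 92 fell and none rose, led by Exosc8, an exosome subunit (-0.27, adjusted p = 0.00382), Nop9 (-0.32, adjusted p = 0.00637) and Nsun5 (-0.24, adjusted p = 0.0126). Of all genes, 6.42% fell and 6.76% rose at that step. From 0.5 to 2 h, 3 of the 92 rose and none fell: Dcaf13 (0.16, adjusted p = 0.0244), Utp4 (0.24, adjusted p = 0.0258) and Bms1 (0.23, adjusted p = 0.0275), all of the small subunit processome. The share of all genes was 2.05% up and 2.64% down. From 0.5 to 24 h, 2 of the 92 rose, Mak16 (0.28, adjusted p = 0.00095) and Efl1 (0.21, adjusted p = 0.00992), and 7 fell, led by Exosc8 (-0.31, adjusted p = 0.000836), Xrn2, an RNA exonuclease (-0.21, adjusted p = 0.00621), and Utp15 (-0.20, adjusted p = 0.0162), where 10.6% of all genes rose and 13% fell.

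Of 24 other genes of RNA polymerases I and III, 1 rose with both agents, Polr1d, a subunit of both enzymes (0.15, adjusted p = 0.0454), a share near that of all genes. Taf1a, a polymerase I initiation factor (0.30, adjusted p = 0.0334), and Polr3e (0.24, adjusted p = 0.0347) rose from 0.5 to 2 h. Of 42 cytoplasmic ribosomal protein genes tested, of 78 in the list, 2 rose with both agents, Rps25 (0.62, adjusted p = 0.00935) and Rpl10a (0.18, adjusted p = 0.0307), none fell, and 38 were above 0 with a median of 0.06. The share that rose was again near that of all genes. Of 8 genes that host snoRNAs, Snhg8 (0.17, adjusted p = 0.0222) and Snhg6 (0.22, adjusted p = 0.0346) rose with both agents, and 7 were above 0. From 6 to 24 h, Gtf3c1 of the polymerase list (0.23, adjusted p = 0.018), Rpl14 (0.36, adjusted p = 0.0405) and Snhg8 (0.20, adjusted p = 0.00408) rose. No fall was called in these lists at that step, where 6.76% of all genes rose.

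Of the 11 network partners of MYC, 1 fell with both agents and 3 were above 0. It was Mxd4, which encodes a repressor that competes with MYC for its partner MAX (-0.31, adjusted p = 0.0321), and which also fell with BayK8644 alone (-0.40, adjusted p = 0.0266). Mxi1, of the same repressor family, fell with BayK8644 at 6 h (-0.48, adjusted p = 0.0306) and at 24 h (-0.45, adjusted p = 0.026). Mlxipl, a partner outside that family, also fell with BayK8644 at 24 h (-0.58, adjusted p = 0.0409). The background in either direction was 2.48% at 6 h and 5.11% at 24 h. Over the times, Mxd3, a further member of that family, fell from 6 to 24 h (-0.57, adjusted p = 5.67e-05) and from 0.5 to 24 h (-0.79, adjusted p = 1.42e-06), while Mxd4 rose from 6 to 24 h (0.31, adjusted p = 0.0164). Of 28 nucleotide synthesis genes and other MYC targets, 4 rose and none fell with both agents, among them Slc3a2, an amino acid transporter chain (0.25, adjusted p = 0.0151), Ppat, which starts purine synthesis (0.24, adjusted p = 0.017), and Ldha, lactate dehydrogenase (0.74, adjusted p = 0.0186). From 6 to 24 h, Ipo4 (0.19, adjusted p = 0.022) and Ldha (0.52, adjusted p = 0.0396) rose. At that step 4 of the 28 fell, led by Shmt1 (-0.37, adjusted p = 0.000441), where 6.76% of all genes rose and 6.42% fell. From 0.5 to 24 h, 8 of the 28 rose, led by Hspd1 (0.20, adjusted p = 0.00227), and 2 fell, Odc1 and Shmt1. Of all genes, 10.6% rose and 13% fell there. Ppat rose from 0.5 to 2 h. With BayK8644, Mthfd2 rose at 2 h (0.41, adjusted p = 0.0354) and at 6 h (0.38, adjusted p = 0.0401), and Slc3a2 rose at 24 h.

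Some markers of other cell types moved beside the members, and others did not. With both agents, the glucagon gene Gcg, a marker of alpha cells, rose by 0.49 (SE 0.121, adjusted p = 0.0312), and Vim, found in mesenchymal cells, by 0.50 (SE 0.135, adjusted p = 0.0436). Sst, the somatostatin gene of delta cells, kept between 5.09 and 5.14 on the DMSO arrays and had 5.11, 5.45, 6.08 and 7.61 with both agents and 5.10, 5.12, 5.41 and 7.37 with BayK8644. It did not pass over the times with both agents (0.95, SE 0.368, adjusted p = 0.117), but rose with BayK8644 at 24 h (2.36, adjusted p = 0.000218), as did Gcg (0.56, adjusted p = 0.0176) and Vim (0.97, adjusted p = 0.000499). Gcg and Vim also rose with BayK8644 at 6 h. None of the 10 beta cell markers passed for both agents against DMSO over the times. At single times Nkx2-2, a transcription factor of beta cells, fell with BayK8644 at 2 h (-0.38, adjusted p = 0.0113), 6 h (-0.35, adjusted p = 0.0143) and 24 h (-0.64, adjusted p = 0.000499). The log2 of the summed intensity of the 5 alpha, delta and PP cell markers ran from 9.26 to 9.70 on the DMSO arrays and from 9.74 to 10.19 on the combination arrays. That of the 7 mesenchymal, endothelial and leukocyte markers ran from 10.09 to 10.30 and from 10.43 to 11.21. Of these 7, only Vim passed the filter and 6 stayed under it on every array, so this sum follows Vim alone. In the first sum, Gcg was the brightest gene on every array. The sums therefore add little to these single genes. Ppy, Hhex, Col1a1, Pecam1 and Ptprc were near the floor of the method throughout. Whether such cells were present beside the R7T1 cells was not tested, and neither was their part in the members' differences. In such bulk samples, a change in the number of cells of a type and a change in RNA per cell cannot be told apart.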

How the data were processed

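Gene expression was measured in R7T1 cells on 16 1-colour Affymetrix arrays, 1 per treatment and time. The authors deposited intensity values on a linear scale. GCRMA is the tool that the submitters' processing notes name, and its version is not stated there. GCRMA corrects background and normalizes between arrays, so a shift shared by all genes would not be seen. The log2 of each deposited intensity was taken with no pseudocount. Of 45101 probe sets, 34958 had 1 gene symbol in the platform annotation, 932 had several and 9211 had none; only the first were used. Probe sets with a log2 level of 4 or more on at least 2 arrays were kept, and the one with the highest mean stood for its gene.

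The tests used limma 3.58.1 under R 4.3.3 (lmFit, eBayes with an intensity trend). One held time and treatment (9 residual degrees of freedom), and a further one each agent at each time, taken as additive (4 residual degrees of freedom). All p-values were adjusted by Benjamini-Hochberg across the 10610 genes, and a gene was called at 0.05. Probe sets of members were tested in a separate fit over 19204 probe sets. Both models were also run on simulated data, with independent noise and a fixed change added on chosen arrays. Those data held no departure from either model and no shift shared by an array, so they say nothing of such cases. The members and lists were chosen with earlier results of these data known. Levels on every array are given for Myc, for the 6 members with the smallest p in each comparison with a call, and for the 6 of widest range. From the other lists at most 3 called genes per direction and comparison are named. Alternatives covered the filter, probe sets, centring, a pseudocount, the trend and arrays left out. The number of arrays limits the precision.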

Additional observations from a re-analysis of the deposited data

Results flagged for a closer look

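In 5 of 80 sets of 4 arrays of 1 treatment (20 named members, 4 treatments), the highest or lowest array lay apart from the other 3 by more than Dixon's critical value for 4 samples (gap divided by range). Chance gives about 1 in 20 for 4 draws from a normal distribution. Except for Myc, these members were picked by small p or wide range in the same data. The share here therefore cannot be set against that rate. The 4 arrays of a set are 4 times, so an array that stands apart is also a time.

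Bop1 was highest with BayK8644 at 6 h, at 12.02 (gap 0.87 of the range). Rrp9 was highest on the same array, at 7.72 (0.841). Heatr1 was lowest with DMSO at 0.5 h, at 8.98 (0.847). Noc4l was lowest with exendin-4 at 24 h, at 10.36 (0.895), the time at which it was low with every treatment. Ubtf was highest with exendin-4 at 0.5 h, at 9.51 (0.83).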

How the results depend on the processing

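No result changed direction in 482 alternatives for single members, of which 353 kept the call and 129 lost it. These alternatives covered only members already called, and none used a further probe set alone. Single further probe sets of Bop1, Wdr12, Heatr1 and Polr1a did point the other way for calls of these genes. For the counts of called members, 333 of 370 alternatives stayed within 1.5 times. With both agents against DMSO the count of 5 became 1 with no filter on low values, 3 with arrays centred on their medians, 11 without the arrays of 0.5 h, and 0 without those of 2, 6 or 24 h; with 1 array left out it ran from 0 to 14. For BayK8644 over the times the count of 0 became 3 with present set against absent and 1 without the arrays of 0.5 h, and ran from 0 to 1 with 1 array left out. For BayK8644 at 24 h it ran from 0 to 3. From 0.5 to 2 h it ran from 2 to 4. From 6 to 24 h the count of 5 became 2 with no filter, 3 with the mean over probe sets and 3 without the intensity trend, and ran from 1 to 7. From 0.5 to 24 h the count of 7 ran from 4 to 8. The cause was not tested. Treatments were compared within time, as time was a term of every model; no replicate number pairs the arrays. Differences of about 0.2 rest on 4 arrays a side, and levels of single genes near the filter level are limited by signal over background.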
